A study of Mus musculus with 96 samples.

Results

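Phenobarbital was compared with control in the frozen portions of 12 mouse livers, 6 from treated and 6 from control animals, which are 12 of the 96 libraries of the series. The libraries were chosen by their labels alone, as the frozen state of each liver. All animals were male B6C3F1 mice, the hybrid of C57BL/6 and C3H parents, aged 10 to 11 weeks. Treated mice drank water with 600 ppm phenobarbital for 7 days and controls drank water with 0 ppm. Pieces of 3 liver lobes (left lateral, caudate and right medial) were mixed and flash frozen. Each liver was kept in 8 ways, of which the portion fixed in 70% ethanol and embedded in paraffin is used below where named. Libraries were made from total RNA depleted of ribosomal RNA.

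Phenobarbital is a barbiturate that switches on drug metabolism in hepatocytes. It releases the constitutive androstane receptor CAR, the product of Nr1i3, from the cytoplasm, and CAR then works in the nucleus with the retinoid X receptor on target genes that overlap those of the pregnane X receptor PXR, the product of Nr1i2. The best known targets encode cytochrome P450 enzymes and the enzymes that couple oxidised products to glutathione, glucuronic acid or sulfate for export. In mice the drug also starts hepatocyte division and enlarges the liver, and CAR activation is known to lower genes of glucose production and fatty acid handling.

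Counts on genes ran from 14527636 to 18442730 per library (median 15151571). The hepatocyte gene Alb ranged from 41791 to 62046 CPM (counts scaled to library size with TMM factors) in controls and from 25875 to 49619 CPM in treated livers. Of 20 marker genes of pancreas, fat and gallbladder, 12 had no count in any library and 2 passed the filter on low counts, of which 1, the fat gene Fabp4, was called higher (log2 change 0.78, adjusted p = 0.0229). Leaving out control 90C, treated 20B, or both 20B and 80B gave Fabp4 an adjusted p of 0.05, 0.0523 and 0.101. Total counts, genes detected at equal depth and the share of mitochondrially encoded counts gave adjusted exact permutation p of 0.358, 0.764 and 0.358 between the groups. The 10 most abundant genes held 16.9% ± 0.36 of counts in controls and 15.1% ± 0.573 in treated livers (SD, n = 6 each, two-sided exact permutation p = 0.00216, adjusted p = 0.00866). The adjusted p was 0.0519 for the difference in medians of that share (exact permutation). Each library came from a different animal. Because the RNA is from whole tissue, a change in the number of cells of a type and a change in RNA per cell cannot be told apart.

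Of 13929 genes tested, 1313 were called at an adjusted p under 0.05 (edgeR's quasi-likelihood test with Benjamini-Hochberg adjustment), which is 9.43% of them. The response was uneven in direction and in size. Phenobarbital raised 821 genes (5.89%) and lowered 492 (3.53%), with a median log2 change of 0.50 among the risen genes, -0.36 among the fallen genes and -0.01 over all genes tested. A change of at least 2-fold was seen in 235 risen and 32 fallen genes, and a change of at least 8-fold in 42 risen and 0 fallen genes. The levels of the 6 treated and 6 control animals did not overlap at all for 763 genes (5.48% of those tested), of which 473 were called higher and 211 lower. In each treated animal 9.78% to 11.6% of all counts fell on the genes called higher, against 5.1% to 5.86% in controls. The genes called lower took 5.32% to 6.22% of counts in treated animals and 8.13% to 8.82% in controls, a description, since the same counts chose the genes. Without the treated animals 20B and 80B together the number of called genes was 690, and 625 of these were among the 1313.

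**Figure D1:**
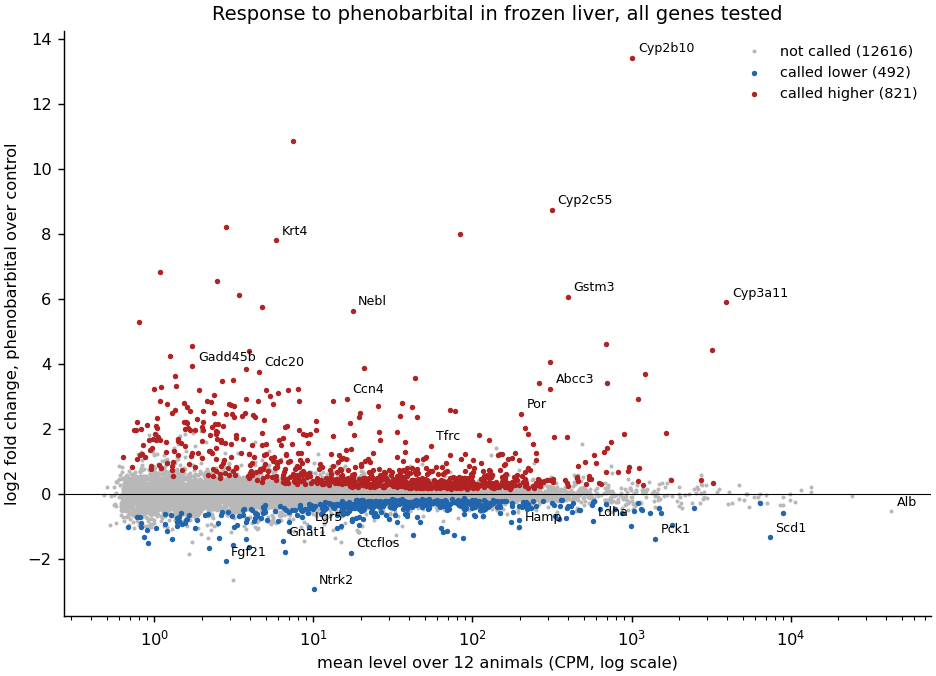
Log2 fold change of phenobarbital over control (y axis) against the mean level over the 12 animals in CPM (x axis, log scale) for the 13929 genes tested; red points are the 821 genes called higher, blue points the 492 called lower and grey points the rest. Rises reach a log2 change of 13.42 (Cyp2b10), while the largest fall among labelled genes is -2.94 (Ntrk2).

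Most P450 genes of the families that CAR and PXR control rose. Of 19 tested genes of the Cyp2b, Cyp2c and Cyp3a families 13 were called higher and 0 lower, with a median log2 change of 3.70, and 10 further members did not pass the low-count filter. Their summed level was 1952 to 2957 CPM in controls and 18357 to 29397 CPM in treated animals. Cyp2b10, the classical phenobarbital marker, measured 0.0618, 0.165 and 0.333 CPM (lowest, median and highest control) and 1593, 2001 and 2447 CPM (lowest, median and highest treated animal), a log2 change of 13.42 (SE 0.29, adjusted p = 1.49e-12). Cyp3a11, the main drug-oxidising Cyp3a enzyme, went from 29.1, 136 and 248 CPM to 5246, 6796 and 11361 CPM (log2 change 5.90, SE 0.47, adjusted p = 3.1e-06). Every treated animal was far above every control for both genes. Cyp2c66 had no count in any control and 10.4, 15.3 and 18.1 CPM in treated animals. Set against 3 counts, the limit that a count of 0 in the pooled controls allows, it was at least 448-fold higher.

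Members of the same families did not all rise. A run of 5 consecutive tested genes on chromosome 19 (GRCm38, 38930915 to 39330713) was called higher throughout: Hells, Cyp2c55, Cyp2c65, Cyp2c66 and Cyp2c29. Cyp2c70, which makes muricholic bile acids in mice, lies in the same family and measured 587, 880 and 1148 CPM in controls and 948, 1103 and 1335 CPM in treated animals (log2 change 0.34, SE 0.14, adjusted p = 0.156). Cyp2c67 measured 164 to 309 CPM in controls and 113 to 212 CPM in treated animals (log2 change -0.46, adjusted p = 0.131). The groups overlapped for Cyp2c70 and for Cyp2c67. All 5 tested Cyp3a genes were called higher, among them Cyp3a25, which went from 252, 362 and 545 CPM to 683, 1048 and 1308 CPM. Cyp2b9 and Cyp2b13, close copies of Cyp2b10, had no count in controls and at most 1.85 and 0.111 CPM in treated animals, and reads shared with Cyp2b10 could be counted on either.

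A direct repeat of AGNTCA with 4 bases between the copies, the arrangement known as DR4 that CAR with the retinoid X receptor can bind, was searched on both strands of RefSeq promoters (GRCm38.p6, 250 bases before to 50 after each gene start). It stood in 8 of 12837 promoters of tested genes (0.0623%). Of these genes Cyp3a11 and Lcp1 were called higher and Rnf217 lower, while Acrbp, Frzb, Gmpr, Mrgpre and Tfdp2 were not called. The stretch of the Cyp3a11 promoter at chr5:145879955-145880054 (minus strand, printed 5′ to 3′, repeat in capitals) is shown because it belongs to the gene with the largest rise in CPM.
Cyp3a11: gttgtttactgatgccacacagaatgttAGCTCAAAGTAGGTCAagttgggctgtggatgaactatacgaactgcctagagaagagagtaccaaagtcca
The match describes these letters and is not evidence of binding. The distant enhancers of these genes lie outside the window.

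Other P450 genes moved in part. Of 30 tested genes outside those families 10 were called higher (33.3%) and 1 lower (3.33%), against 5.89% and 3.53% of all genes. Their median log2 change was 0.04. Cyp1a2, which oxidises aromatic amines and caffeine, rose from 251, 356 and 472 CPM to 948, 1137 and 1258 CPM (log2 change 1.60, SE 0.14). Cyp2a5 rose from 24.5, 47.5 and 71.9 CPM to 321, 445 and 778 CPM (log2 change 3.40, SE 0.29, adjusted p = 5.11e-06). Cyp26a1, which degrades retinoic acid, rose from 0.589, 1.18 and 2.02 CPM to 4.87, 9.66 and 17.7 CPM. Cyp2d40 was the fallen member, from 63.6, 86.8 and 101 CPM to 36.3, 38.6 and 50.9 CPM (log2 change -1.06, SE 0.12, adjusted p = 5.7e-05). None of these ranges overlapped. Cyp2e1, the ethanol-oxidising enzyme, measured 3765 to 5672 CPM in controls and 4738 to 5923 CPM in treated animals (log2 change 0.28, adjusted p = 0.144), and its adjusted p was 0.0235 without control 21C, its highest control, and 0.0418 by voom.

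Genes whose products serve the P450s rose in part. Of 14 tested electron donors, flavin monooxygenases and epoxide hydrolases 7 were called higher and 0 lower. Por, the reductase that feeds electrons to all microsomal P450s, went from 47, 57.2 and 100 CPM to 215, 326 and 502 CPM (log2 change 2.46, SE 0.24, adjusted p = 2.21e-05). Ephx1, the microsomal epoxide hydrolase, went from 72.1, 99.3 and 136 CPM to 254, 366 and 418 CPM (log2 change 1.84, SE 0.16). Neither range overlapped its controls. Of 16 genes of heme synthesis and breakdown 3 were called higher (18.8%, against 5.89% of all genes). Among them Alad rose by 0.34 and Blvrb by 0.36 on the log2 scale. Alas1, which catalyses the committed step of heme synthesis, was among those that did not pass the test, at 39.9, 152 and 385 CPM in controls and 84.7, 249 and 640 CPM in treated animals (log2 change 0.95, SE 0.57, adjusted p = 0.33). Its spread within each group was wider than the difference between them.

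**Figure D2:**
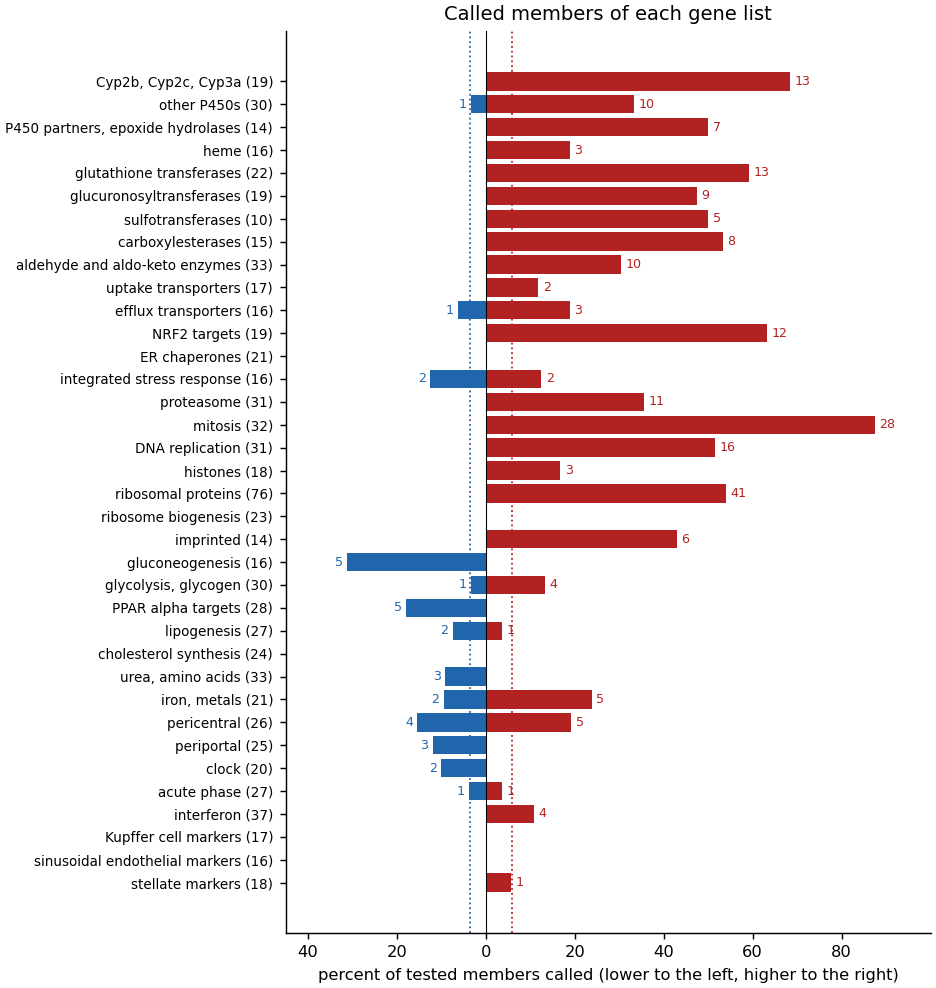
Percent of the tested members of 36 gene lists called higher (red, right) or lower (blue, left), with the number called at the end of each bar and the number tested in brackets; dotted lines mark 5.89% and 3.53%, the shares among all genes tested. Bars past the lines stand on the right for drug metabolism, mitosis and ribosomal proteins among others, and on the left for gluconeogenesis (31.2%), PPAR alpha targets (17.9%) and pericentral genes (15.4%) among others.

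Conjugation enzymes rose across families. Of 22 tested glutathione transferases 13 were called higher and 0 lower, with a median log2 change of 0.61. A set of 5 neighbours on chromosome 3 (GRCm38, 107938847 to 108044894) rose: Gstm6, Gstm3, Gstm2, Gstm1 and Gstm4, with log2 changes of 1.12 to 6.07. Gstm3 went from 8.43, 11.1 and 17.5 CPM to 373, 659 and 1329 CPM (SE 0.34, adjusted p = 7.95e-08). Gstm1 went from 183, 253 and 346 CPM to 1408, 1923 and 2451 CPM, a log2 change of 2.91. All treated animals were above all controls for both genes. Gstp1, abundant in male mouse liver, measured 598 to 687 CPM in controls and 620 to 847 CPM in treated animals (log2 change 0.18, adjusted p = 0.23).

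Glucuronosyltransferases, with the enzymes that supply their sugar donor, had 9 of 19 tested genes called higher and 0 lower. A set of 5 neighbours on chromosome 5 (GRCm38, 86889767 to 87140318), Ugt2b34, Ugt2b1, Ugt2b35, Ugt2b36 and Ugt2b5, were all called higher, and they are close copies whose reads can be hard to assign. Ugt1a1, which conjugates bilirubin, went from 94, 120 and 171 CPM to 327, 365 and 382 CPM (log2 change 1.53, SE 0.11). Of 10 tested sulfotransferases and genes of sulfate activation 5 were called higher. Papss2, which makes the sulfate donor, rose from 139, 168 and 178 CPM to 200, 271 and 315 CPM (log2 change 0.68, SE 0.10).

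Carboxylesterases had 8 of 15 tested genes called higher and 0 lower, and aldehyde dehydrogenases with aldo-keto reductases 10 of 33 and 0. Ces2a, an ester-hydrolysing enzyme, went from 80.8, 125 and 167 CPM to 946, 1185 and 1654 CPM (log2 change 3.40, SE 0.19, adjusted p = 7.95e-08). Aldh1a1, which oxidises retinal, went from 456, 691 and 901 CPM to 1950, 2513 and 3233 CPM (log2 change 1.88, SE 0.18). Akr1d1, the steroid 5-beta-reductase of bile acid synthesis, went from 85.8, 107 and 140 CPM to 194, 272 and 306 CPM. No treated range overlapped its control range in these genes. Ces3a, at 2115 to 2462 CPM in controls and 1652 to 2855 CPM in treated animals, had a log2 change of -0.02 (adjusted p = 0.954).

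Of 16 efflux transporters 3 were called higher (18.8%, against 5.89% of all genes) and 1 lower, and of 17 uptake transporters 2 were called higher (11.8%; 4 genes without control 21C) and 0 lower. The fallen efflux gene was Abcg8, a sterol transporter subunit (log2 change -0.36, adjusted p = 0.0286), with overlapping ranges. The adjusted p of Abcg8 was 0.0721, 0.0553 and 0.0525 without control 8A, 21C or 90C and 0.0686 and 0.0622 without treated 20B or 80B. It was 0.0518 by voom and 0.0529 with library totals alone. Abcc3, which returns conjugates to blood, went from 28, 41.7 and 136 CPM to 422, 561 and 676 CPM (log2 change 3.24, SE 0.35, adjusted p = 5.54e-05). Abcc2, the canalicular pump for conjugates, went from 638, 717 and 855 CPM to 976, 1184 and 1271 CPM (log2 change 0.69, SE 0.09). Slco1a4, an uptake carrier, went from 11.2, 17 and 29.3 CPM to 41, 47.2 and 84.6 CPM (log2 change 1.58, SE 0.23). None of these ranges overlapped. Abcb11, the bile salt export pump, measured 1039 to 1239 CPM in controls and 1119 to 1287 CPM in treated animals (log2 change 0.07, adjusted p = 0.555).

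Most receptors and partners of the drug response were not called. Of 26 tested 2 were called higher (7.69%) and 3 lower (11.5%), against 5.89% and 3.53% of all genes. Their median log2 change was -0.09, and each count was 1 without treated 20B and 80B. Nr1i3, which encodes CAR, measured 38.9, 47.8 and 112 CPM in controls and 35.9, 41.4 and 45.1 CPM in treated animals (log2 change -0.47, SE 0.22, adjusted p = 0.202), with the highest control, 21C, above the other controls at 38.9 to 51.3 CPM. Ahr, the aryl hydrocarbon receptor that controls Cyp1a2, rose from 44.7, 54.5 and 63.9 CPM to 91.3, 131 and 145 CPM (log2 change 1.21, SE 0.11, adjusted p = 1.04e-05). Rxra, the partner of CAR, fell by 0.29 on the log2 scale, from 430 to 512 CPM in controls to 349 to 421 CPM, and its adjusted p was 0.0631 without treated 20B and 80B. Ppara, the fatty acid receptor, fell from 182, 251 and 331 CPM to 109, 138 and 186 CPM (log2 change -0.82, SE 0.15, adjusted p = 0.005), with a small overlap of the ranges. Nr1i2, which encodes PXR, had a log2 change of 0.39 (adjusted p = 0.038). But its adjusted p was 0.0685, 0.0731, 0.0763 and 0.072 without control 8C, 8D, 82B or 90C. It was 0.0729 and 0.0872 without treated 20B or 80B and 0.0627 by voom.

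Antioxidant genes controlled by NRF2 rose modestly. Of 19 tested members 12 were called higher and 0 lower, with a median log2 change of 0.38. Srxn1, which repairs oxidised peroxiredoxins, went from 23.9, 29.8 and 31.6 CPM to 41.2, 57.1 and 85.6 CPM (log2 change 1.04, SE 0.16). Nqo1, the quinone reductase, went from 0.898, 1.34 and 2.42 CPM to 2.68, 3.64 and 7.33 CPM (log2 change 1.52, SE 0.29). Neither range overlapped, though Nqo1 stayed low in every animal. Gclc, which makes the precursor of glutathione, measured 218 to 401 CPM in controls and 278 to 494 CPM in treated animals (log2 change 0.32, adjusted p = 0.201).

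Endoplasmic reticulum chaperones did not follow the P450s. Of 21 tested, 0 were called by edgeR, 1 by DESeq2 and 0 by voom, and 2 had an unadjusted p under 0.05. Hspa5, the chaperone BiP, measured 793 to 1712 CPM in controls and 1173 to 1641 CPM in treated animals (log2 change 0.10, adjusted p = 0.741). Of 16 integrated stress response genes 2 were called higher and 2 lower (12.5% each, against 5.89% and 3.53% of all genes), and 12 were not called. The higher count was 4 without treated 75C, and the lower count 1 without control 90C or treated 18D or 20B. Trib3, a pseudokinase induced by ATF4, rose from 1.66, 2.64 and 4.45 CPM to 5.01, 9.14 and 15 CPM (log2 change 1.67, SE 0.30). Gdf15, a stress hormone, rose from 0.415, 1.58 and 3.64 CPM to 3.99, 8.05 and 12.7 CPM (log2 change 2.28, SE 0.42), and neither range overlapped. Fgf21, a fasting hormone, fell from 1.62, 3.62 and 7.92 CPM to 0.167, 0.858 and 2.29 CPM (log2 change -2.07, SE 0.50, adjusted p = 0.0202), and its adjusted p was 0.078 without treated 20B and 80B. Atf4 itself had a log2 change of -0.02 (adjusted p = 0.943).

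Genes of mitosis rose widely. Of 32 tested mitotic genes 28 were called higher (87.5%, against 5.89% of all genes) and 0 lower, with a median log2 change of 2.40. A further 6 members did not pass the low-count filter. A gene can pass that filter through the treated group alone, which favours risen genes among those tested. Some called members were very low in controls, such as Plk1 and Nuf2 with means of 0.304 and 0.244 CPM. Cdc20, the activator of the anaphase-promoting complex, went from 0.266, 0.443 and 1.17 CPM to 2.93, 4.86 and 18.1 CPM (log2 change 3.76, SE 0.58, adjusted p = 0.00123). Mki67, which encodes the proliferation antigen Ki-67, went from 4.71, 6.07 and 9.21 CPM to 12.5, 18.8 and 67 CPM (log2 change 2.36, SE 0.45, adjusted p = 0.00563). No treated animal overlapped the controls in either gene, but the highest treated values were several times the lowest. The summed level of the mitotic list was 44.8 to 62.4 CPM in controls, 101 to 139 CPM in treated 18B, 18D, 20D and 75C, and 442 and 422 CPM in treated 20B and 80B. Without 20B and 80B the number of its genes called higher was 22. With all animals it was 20 by voom and 36 by DESeq2.

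Of 31 tested DNA replication genes 16 were called higher (51.6%, against 5.89% of all genes) and 0 lower, with a median log2 change of 0.75. The higher count was 9 without treated 80B, 5 without 20B and 80B and 22 without treated 75C. It was 11 by voom and 20 by DESeq2. Ccne2, a cyclin of the entry into DNA synthesis, went from 0.785, 0.871 and 1.69 CPM to 2.6, 3.67 and 5.05 CPM (log2 change 1.93, SE 0.22, adjusted p = 9.58e-05). Pcna, the sliding clamp, measured 10.3 to 13.3 CPM in controls and 9.68 to 25.2 CPM in treated animals (log2 change 0.55, adjusted p = 0.0617), and its adjusted p was 0.00606 without treated 75C, 0.0251 by DESeq2, 0.0496 with no low-count filter and 0.0445 with library totals alone. Gadd45b, a CAR partner in the growth response, went from 0.0665, 0.205 and 0.309 CPM to 1.31, 2.06 and 8.11 CPM (log2 change 3.92, SE 0.55). Ccn4, a secreted Wnt target, went from 2.84, 3.98 and 4.71 CPM to 25.3, 29.4 and 31.7 CPM (log2 change 2.92, SE 0.12, adjusted p = 2.45e-09) and was even among the treated animals. Cdkn1a, the p53 target p21, had a log2 change of -0.04 (adjusted p = 0.949).

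The promoters of the mitotic list shared letters that the list was not chosen by. The cell cycle homology element TTTGAA, searched on both strands, stood in 77.4% of 31 mitotic promoters and in 12.5% of 12837 promoters of tested genes. CCAAT stood in 80.6% and 37.5% of them, and both together in 71% and 4.92%. The E2F motifs TTTCCCGC or TTTGGCGC stood in 31% of 29 replication promoters and in 2.79% of tested promoters, and in 0 of the 31 mitotic ones. Shares by chance depend on base composition, which was not matched. The stretches below (RefSeq, GRCm38.p6, 5′ to 3′ along the gene, TTTGAA and CCAAT in capitals) lie at chr4:118437329-118437413 (minus strand, Cdc20), chr7:80294396-80294465 (plus strand, Prc1) and chr9:70421540-70421654 (minus strand, Ccnb2). In each a TTTGAA lies downstream of a CCAAT near the gene start. Cdc20 also has a CCAAT after its TTTGAA. Ccnb2 has a further TTTGAA at base -167 from the gene start, upstream of the stretch shown. This order was not counted over the list, and the Ccnb1 promoter held CCAAT without TTTGAA.
Cdc20: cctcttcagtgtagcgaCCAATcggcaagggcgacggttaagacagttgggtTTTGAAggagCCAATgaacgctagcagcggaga
Prc1: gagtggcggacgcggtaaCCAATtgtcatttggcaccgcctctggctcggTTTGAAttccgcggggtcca
Ccnb2: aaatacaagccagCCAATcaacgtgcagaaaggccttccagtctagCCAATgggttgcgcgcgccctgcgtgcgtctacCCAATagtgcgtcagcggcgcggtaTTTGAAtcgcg
Prc1, a regulator of the spindle midzone, went from 0.405, 0.807 and 1.67 CPM to 2.8, 3.64 and 14.4 CPM (log2 change 2.91, SE 0.52). Ccnb2, a mitotic cyclin, went from 0.607, 0.947 and 1.24 CPM to 0.935, 2.31 and 9.52 CPM (log2 change 2.14, SE 0.51, adjusted p = 0.0193), with the lowest treated animal inside the control range. The adjusted p of Ccnb2 was 0.0646 without treated 20B and 80B and 0.0955 by voom.

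Ribosomal protein genes shifted by small, even steps. Of 76 tested 41 were called higher and 0 lower, with a median log2 change of 0.23, while of 23 ribosome biogenesis genes 0 were called by edgeR, DESeq2 or voom, 0 had an unadjusted p under 0.05 and the median was -0.01. Rpl17 went from 77, 84.5 and 90.6 CPM to 97.3, 104 and 126 CPM (log2 change 0.37, SE 0.07), and no range overlapped. The summed level of the ribosomal list was 5769 to 6231 CPM in controls and 6571 to 8053 CPM in treated animals, highest in 20B. The count called was 27 without control 8C, 22 without 21C, 23 without treated 20B, 20 without 80B and 15 without 20B and 80B. It was 59 without treated 75C. Proteasome subunits had 11 of 31 genes called higher and 0 lower with a median of 0.16. The proteasome count was 6 without control 21C, 7 without 82B, 7 without treated 20B, 6 without 80B and 1 without 20B and 80B. It was 14 without treated 75C. Psmd14, a lid subunit, went from 40.3, 46.6 and 52.9 CPM to 53.2, 54.7 and 59.8 CPM.

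**Figure D3:**
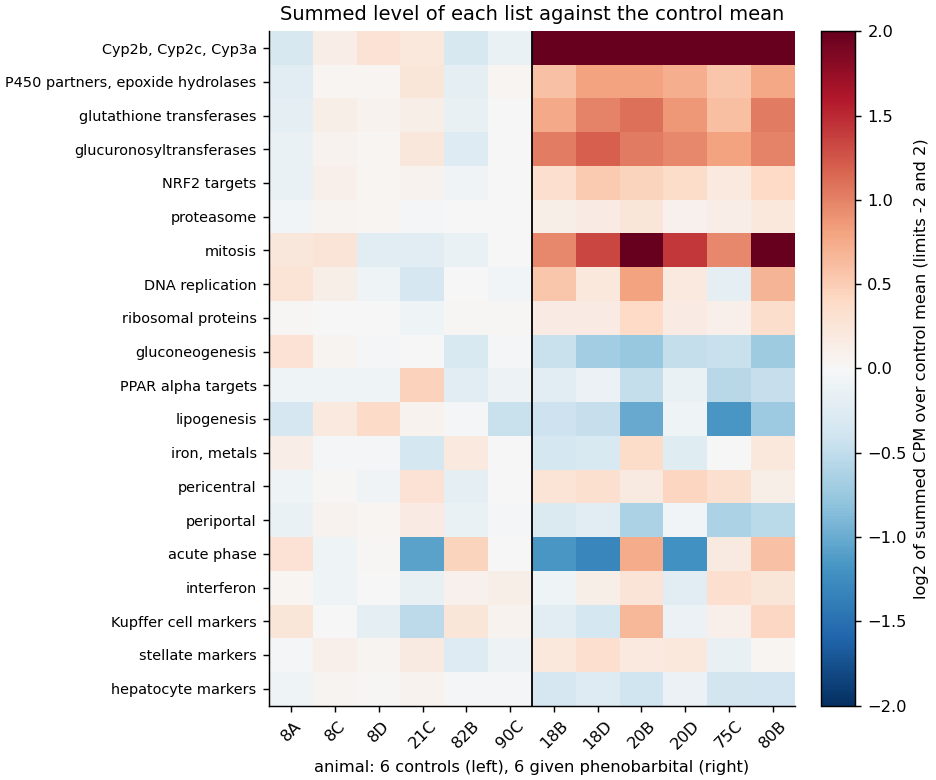
Summed level of 20 gene lists in each animal as the log2 ratio to the control mean (colour, limits -2 and 2), controls on the left and treated animals on the right. Drug metabolism rows are red in all treated animals, the mitosis row is darkest in 20B and 80B, and the acute phase row is blue in control 21C and treated 18B, 18D and 20D.

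Some genes of glucose production fell. Of 16 tested 0 were called higher and 5 lower (31.2%, against 3.53% of all genes). The median log2 change was -0.35 against -0.01 over all genes. The fallen members were Pck1, Tat, Foxo1, Gpd1 and Slc25a22. Fbp1 and Pcx of the same list were not called (log2 changes -0.36 and -0.14, edgeR, adjusted p = 0.0541 and 0.179). The fallen count was 3 without control 90C or without treated 18D, 20B or 80B and 2 without 20B and 80B together. It was 7 without treated 20D, 7 by DESeq2 and 5 by voom. Pck1, which makes phosphoenolpyruvate for glucose synthesis, went from 1432, 1794 and 3423 CPM to 536, 736 and 1081 CPM (log2 change -1.38, SE 0.21, adjusted p = 0.00132). Slc25a22, a mitochondrial glutamate carrier, went from 71.6, 89 and 125 CPM to 35.3, 42.4 and 53.7 CPM (log2 change -1.16, SE 0.14). All treated animals were below all controls in both. G6pc, which releases free glucose, measured 149 to 878 CPM in controls and 167 to 422 CPM in treated animals (log2 change -0.72, adjusted p = 0.242). In the glycolysis and glycogen list 4 of 30 genes were called higher (13.3%, against 5.89% of all genes) and 1 lower (3.33%, against 3.53%). The higher count was 2 without control 82B or treated 18D. The fallen gene was Ldha, lactate dehydrogenase A, which went from 558, 764 and 785 CPM to 327, 389 and 561 CPM (log2 change -0.84, SE 0.13), the ranges just overlapping. Irs2, a docking protein of the insulin receptor, fell from 30.1, 37.5 and 47.5 CPM to 13, 23 and 27.9 CPM.

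Most PPAR alpha targets and fatty acid oxidation genes did not pass the test. Of 28 tested 0 were called higher and 5 lower (17.9%, against 3.53% of all genes), Fgf21 among them. The median log2 change was -0.18. The fallen count was 3 without control 8A or without treated 18D, 75C or 80B and 2 without 20B and 80B together. It was 7 without control 8C, 9 by DESeq2 and 6 by voom. Cpt1a, the gate of mitochondrial fatty acid entry, went from 379, 455 and 637 CPM to 250, 282 and 339 CPM (log2 change -0.76, SE 0.12, adjusted p = 0.00172). Plin5, a lipid droplet protein outside that list, went from 24.4, 29.7 and 35 CPM to 16.2, 18.8 and 19 CPM (log2 change -0.69, SE 0.08). Neither range overlapped.

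Lipid synthesis did not move as a block. Of 27 tested lipogenic genes 1 was called higher (3.7%) and 2 lower (7.41%), against 5.89% and 3.53% of all genes. Of 24 cholesterol synthesis genes 0 were called by edgeR, 0 by DESeq2 and 1 by voom, with 3 at an unadjusted p under 0.05. Thrsp, a driver of lipogenesis, rose from 60.3, 135 and 283 CPM to 216, 376 and 437 CPM (log2 change 1.24, SE 0.29, adjusted p = 0.0162), with overlap. Fads2, the delta-6 desaturase, fell from 365, 411 and 448 CPM to 223, 241 and 316 CPM (log2 change -0.69, SE 0.09). Scd1, the delta-9 desaturase, had the largest fall in CPM of any called gene, from 6086, 10893 and 15286 CPM to 941, 4064 and 7949 CPM (log2 change -1.33, SE 0.37, adjusted p = 0.0376). Its ranges overlapped, and the highest adjusted p with a single animal left out was 0.0815, without treated 20B. The call on Scd1 was kept without control 90C or treated 20D or 75C alone. Fasn, fatty acid synthase, measured 571 to 1816 CPM in controls and 740 to 1862 CPM in treated animals (log2 change 0.36, adjusted p = 0.421).

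Bile acid synthesis had 2 of 18 genes called higher (11.1%) and 1 lower (5.56%), against 5.89% and 3.53% of all genes. Cyp7a1, the rate-limiting enzyme, measured 11.9, 44.9 and 77 CPM in controls and 27, 36 and 46.2 CPM in treated animals (log2 change -0.37, adjusted p = 0.559), inside the control range in every treated animal. Akr1c14, a hydroxysteroid dehydrogenase, rose from 280, 321 and 394 CPM to 502, 584 and 686 CPM (log2 change 0.85, SE 0.10). Of 33 urea cycle and amino acid genes 0 were called higher and 3 lower (9.09%). Among the fallen was Cbs, which makes cystathionine and went from 513, 533 and 600 CPM to 317, 376 and 456 CPM (log2 change -0.50, SE 0.09). That count was 1 without control 90C or treated 18D and 5 without treated 20D. Cps1, the entry enzyme of the urea cycle, had a log2 change of -0.09 (adjusted p = 0.738). Lipoprotein genes had 2 of 24 called higher (8.33%) and 4 lower (16.7%). Scarb1, the HDL receptor, fell from 202, 216 and 229 CPM to 129, 139 and 186 CPM (log2 change -0.57, SE 0.08), and Lpl, lipoprotein lipase, rose from 35.5, 41.8 and 46.4 CPM to 52.6, 65.9 and 75.9 CPM (log2 change 0.66, SE 0.11). The lower count was 2 without control 21C or treated 18D, 75C or 80B, 5 without treated 18B and 7 by DESeq2.

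Genes of the pericentral zone, where P450s are densest, went both ways. Of 26 tested 5 were called higher (19.2%) and 4 lower (15.4%), against 5.89% and 3.53% of all genes. The risen members were Cyp2c37, Cyp1a2, Ahr, Gstm6 and Lect2, and the fallen ones Lgr5, Slc1a2, Glul and Avpr1a. Of the risen members Cyp2c37, Cyp1a2, Ahr and Gstm6 were already counted in the P450, receptor and glutathione transferase lists above. Glul, the glutamine synthetase of the last hepatocytes around the central vein, went from 824, 917 and 1004 CPM to 560, 666 and 758 CPM (log2 change -0.47, SE 0.09, adjusted p = 0.00578). Lgr5, a Wnt receptor component of the same cells, went from 6.98, 13.6 and 16.9 CPM to 3.34, 6.44 and 9.37 CPM (log2 change -1.01, SE 0.25, adjusted p = 0.022), and its ranges overlapped. The adjusted p of Lgr5 was 0.0503 and 0.0502 without control 8D or 90C, 0.054 without treated 20B and 0.0955 without 20B and 80B. It was also 0.054 by voom. Notum, a secreted Wnt inhibitor, went from 18.8, 22 and 26.3 CPM to 9.57, 11.3 and 16.9 CPM (log2 change -0.85, SE 0.15), with no overlap. Axin2, a general Wnt target, measured 7.76 to 13.7 CPM in controls and 6.23 to 12.5 CPM in treated animals (log2 change -0.27, adjusted p = 0.374). Lgr5, Slc1a2, Avpr1a, Lect2 and Axin2 were picked after their values were seen. Of 25 periportal genes 0 were called higher and 3 lower (12%, against 3.53% of all genes). The lower count was 1 without control 8C, 8D or 90C or treated 18D and 6 without treated 20D.

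**Figure D4:**
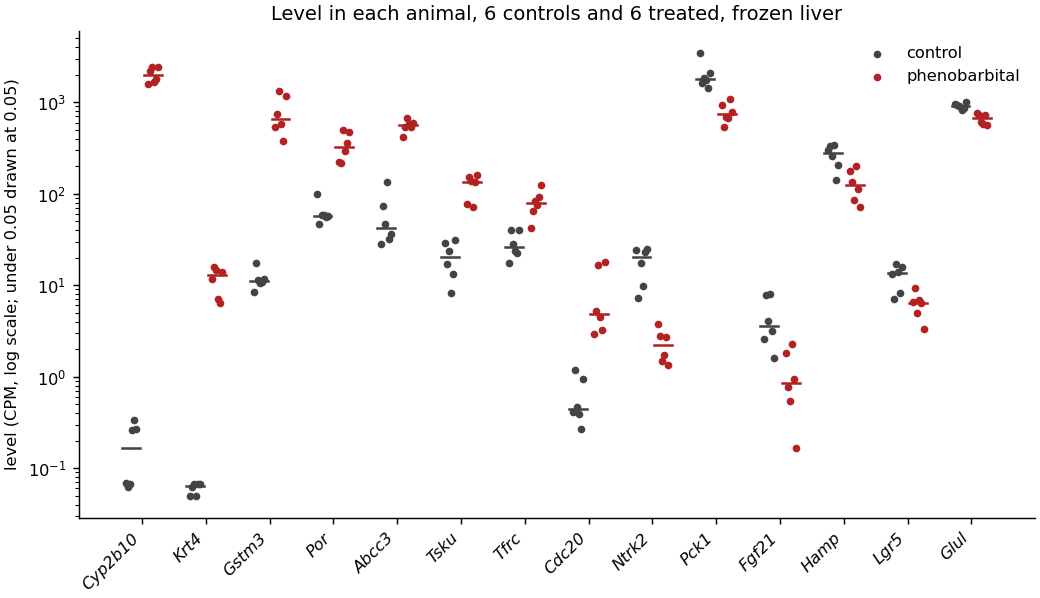
Level of 14 genes in each animal in CPM (y axis, log scale; points under 0.05 are drawn at 0.05), controls in grey and treated animals in red, with a bar at each group's median. Cyp2b10, Krt4, Gstm3, Por, Abcc3, Tsku, Tfrc and Cdc20 are higher in all 6 treated animals than in all 6 controls, Ntrk2, Pck1 and Glul are lower in all 6, and Fgf21, Hamp and Lgr5 overlap.

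Iron genes changed in a pattern of their own. Of 21 tested 5 were called higher (Tfrc, Hfe, Ftl1, Fth1 and Hfe2) and 2 lower (Hamp and Slc39a14). These are 23.8% and 9.52%, against 5.89% and 3.53% of all genes. Tfrc, the transferrin receptor, went from 17.7, 25.9 and 40.3 CPM to 41.9, 79.7 and 124 CPM (log2 change 1.48, SE 0.25, adjusted p = 0.0023). Ftl1, the ferritin light chain, went from 472, 541 and 601 CPM to 668, 880 and 968 CPM (log2 change 0.66, SE 0.09), and Fth1, the heavy chain, from 392, 443 and 474 CPM to 566, 629 and 774 CPM. All treated animals exceeded all controls in these 3 genes. Hamp, the iron hormone hepcidin, went from 142, 278 and 343 CPM to 72.1, 125 and 199 CPM (log2 change -1.01, SE 0.26, adjusted p = 0.0275), with overlap. Its adjusted p was 0.0567, 0.0562 and 0.0545 without control 8A, 8C or 21C and 0.0532, 0.0622 and 0.0541 without treated 18D, 20B or 80B. The count of 2 fallen iron genes was 0 without control 8A or 8C or treated 18D or 20B.

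Imprinted genes had 6 of 14 tested members called higher and 0 lower, a count that was 3 without control 8A, 8C or 21C. Rian and Meg3, noncoding RNAs of the Dlk1-Dio3 region, went from 0.665, 1.38 and 1.96 CPM to 4.9, 7.3 and 8.98 CPM (Rian, log2 change 2.36, SE 0.22) and from 0.865, 1.15 and 1.92 CPM to 2.34, 3.82 and 5.41 CPM (Meg3, log2 change 1.64, SE 0.24). Neither range overlapped. Airn, the antisense RNA over Igf2r, rose from 1.2, 1.88 and 2.76 CPM to 3.23, 3.89 and 5.47 CPM, and strand use in counting is not given in the sources used here. Of all 1246 long noncoding RNAs tested 21 were called higher and 35 lower. Both are smaller shares than the 5.89% and 3.53% over all genes tested. Ctcflos, an RNA antisense to Ctcfl, had the largest fall among those of at least 5 CPM, from 17.4, 27.9 and 39.9 CPM to 4.94, 7.74 and 9.28 CPM (log2 change -1.81, SE 0.20). B430219N15Rik had the largest rise, from 3.07, 5.7 and 10.3 CPM to 24, 34.4 and 42.5 CPM (log2 change 2.49, SE 0.25). Neat1, the scaffold of paraspeckles, fell from 1253, 2331 and 3725 CPM to 753, 1175 and 1912 CPM (log2 change -0.97, SE 0.25, adjusted p = 0.0249), with overlap, and its adjusted p was 0.0533 and 0.0553 without control 8A or 90C and 0.0576 and 0.0559 without treated 18D or 20B.

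Single changes, some of them under 2-fold, lay outside these groups. Ntrk2, the receptor of brain-derived neurotrophic factor, had the largest fall of the named genes, from 7.17, 20.1 and 24.6 CPM to 1.34, 2.23 and 3.8 CPM (log2 change -2.94, SE 0.34, adjusted p = 0.000119). Foxa3, a hepatocyte transcription factor, fell from 48.5, 54.4 and 68.4 CPM to 23.9, 33.1 and 43.6 CPM (log2 change -0.71, SE 0.12). Il6ra, the interleukin 6 receptor, fell from 46.6, 61.4 and 74.7 CPM to 26, 32.4 and 40.7 CPM (log2 change -0.88, SE 0.12). No range overlapped in these 3 genes. Krt4, a keratin of stratified epithelia, went from at most 0.0675 CPM in controls, 4 counts in all, to 6.34, 12.9 and 15.8 CPM. Nebl, which encodes the actin-binding protein nebulette, rose from 0.124, 0.745 and 1.01 CPM to 13.6, 24.9 and 66 CPM (log2 change 5.64, SE 0.49).

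Further rises outside every list were ranked after the values were seen. Cnmd, which encodes chondromodulin, rose from 0.878, 1.65 and 1.89 CPM to 11.5, 14.2 and 18 CPM (log2 change 3.22, SE 0.17, adjusted p = 4.32e-08). Smpd3, a neutral sphingomyelinase, rose from 2.42, 9.29 and 15.2 CPM to 35.2, 61.1 and 86.3 CPM (log2 change 2.78, SE 0.34). Tsku, which encodes the secreted protein tsukushi, rose from 8.31, 20.3 and 31.1 CPM to 72, 136 and 162 CPM (log2 change 2.59, SE 0.30). In none did the groups overlap. Kcnk1, a potassium channel, rose from 4.57, 14.3 and 24.6 CPM to 39.3, 80.5 and 101 CPM (log2 change 2.36, SE 0.37). Ndrg1 rose from 7.67, 9.44 and 18.4 CPM to 36.6, 40.8 and 46.6 CPM (log2 change 1.89, SE 0.17). Ccl9, a chemokine, rose from 41.7, 48.4 and 59.3 CPM to 91.3, 123 and 320 CPM (log2 change 1.81, SE 0.27). Pnliprp1, a lipase relative known from pancreas, had 1 count in all controls together and 3.93, 5.34 and 7.39 CPM in treated animals, and the pancreatic protease gene Prss2 had no count in any library.

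Genes of immune and timing programs were read against the shares over all genes, 5.89% higher and 3.53% lower. Of 27 acute phase genes 1 was called higher and 1 lower (3.7% each), of 37 interferon genes 4 (10.8%) and 0, of 20 clock genes 0 and 2 (10%), and of 15 immediate early genes 0 by edgeR. For the immediate early genes DESeq2 called 3 and voom 0, and 4 had an unadjusted p under 0.05. Arntl, which encodes the clock factor BMAL1, measured 17.1 to 43.5 CPM in controls and 22.4 to 36.9 CPM in treated animals (log2 change -0.11, adjusted p = 0.774). Cxcl10, an interferon-induced chemokine, rose from 0.532, 0.771 and 1.5 CPM to 1.56, 1.99 and 2.39 CPM (log2 change 1.18, SE 0.25, adjusted p = 0.00924). The interferon count was 2 without treated 20B or 80B and 8 without 20D. The clock count was 1 when control 8A, 8C, 82B or 90C or treated 18D, 20B, 20D, 75C or 80B was left out.

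Levels of acute phase genes differed widely between animals of a group. Saa1, which encodes a serum amyloid made under interleukin 6, measured 39.2 CPM in control 21C and 1602 to 5168 CPM in the other controls. It measured 54.1 to 144 CPM in treated 18B, 18D and 20D, and 3223, 7424 and 8362 CPM in treated 75C, 80B and 20B (log2 change 0.26, SE 1.13, adjusted p = 0.921). The log2 change of Saa1 turned to -0.30 without 20B, -0.18 without 80B, -1.62 without both and -2.29 by voom, and no fit called it. The summed acute phase list was 114491 and 102781 CPM in treated 20B and 80B, the 2 highest of all 12 animals, which also held the highest mitotic sums. In the ethanol portions the same animals were again highest, with mitotic sums of 406 and 399 CPM against 89.5 to 127 CPM in other treated animals, and acute phase sums of 102704 and 100262 CPM. Orm3, an acute phase glycoprotein gene, followed the same order, with 106 and 78.3 CPM in 20B and 80B. It measured 10.9 to 46.9 CPM in the other treated animals (log2 change 2.71, SE 0.65, adjusted p = 0.0184). The adjusted p of Orm3 was 0.119 without 20B and 80B and 0.12 by voom. Gsta1, an inducible glutathione transferase, measured 14.2 and 16.1 CPM in 20B and 80B and 1.06 to 4.1 CPM in the others. Akr1b7, an aldose reductase relative, measured 20.3 and 19.3 CPM against 1.5 to 5.34 CPM. Counts without 20B and 80B are given above, from fits that also hold fewer animals. Beyond those fits, the part of this difference between animals in the group results was not tested. Treated 20B and 80B also had the highest total counts of the frozen libraries, 17311267 and 18442730.

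**Figure D5:**
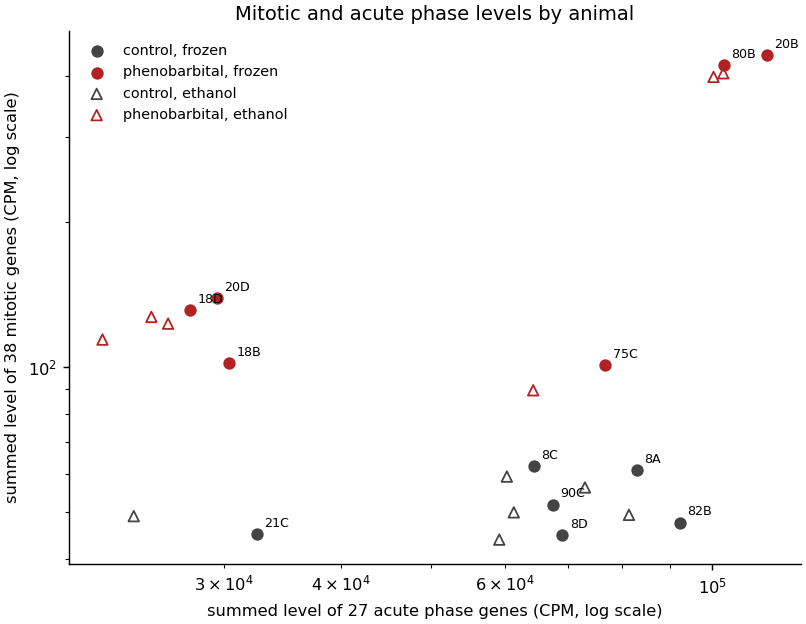
Summed level of 38 mitotic genes (y axis) against that of 27 acute phase genes (x axis), both in CPM on log scales, for each animal; filled circles are frozen and open triangles ethanol portions, grey for control and red for treated. Treated 20B and 80B stand apart at 442 and 422 CPM of mitotic genes in frozen liver, and all frozen controls lie between 44.8 and 62.4 CPM.

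Markers of other liver cells moved little with treatment. Of 16 sinusoidal endothelial, 17 Kupffer, 9 bile duct, 4 lymphocyte, 4 neutrophil and 10 erythroid markers tested, 60 in all, 0 were called by edgeR, 1 by DESeq2 and 1 by voom, and 8 had an unadjusted p under 0.05. Of 18 stellate markers 1 was called higher (5.56%, against 5.89% of all genes). That gene was Col3a1, a fibrillar collagen, from 52.1, 63.7 and 90.3 CPM to 67.9, 119 and 145 CPM (log2 change 0.71, SE 0.20, adjusted p = 0.0403). Its adjusted p was above 0.05 without control 8C, 21C, 82B or 90C or treated 18D, 20B or 80B (0.0676, 0.0763, 0.085, 0.0817, 0.0825, 0.0891 and 0.0888). It was 0.0529 by voom. The summed Kupffer list was 656 to 1113 CPM in controls and 732 to 1482 CPM in treated animals, highest in 20B and 80B (1482 and 1248 CPM). The summed neutrophil list was 5.82 to 23.5 CPM in controls and 7.79 to 27.3 CPM in treated animals, again highest in 20B and 80B (27 and 27.3 CPM). Among neutrophil markers Ly6g was at or near 0 in all animals, at most 0.0691 CPM. Whether these cells take part in the higher mitotic level of 20B and 80B was not tested. Of 14 hepatocyte markers 1 was called higher (7.14%) and 3 lower (21.4%), against 5.89% and 3.53% of all genes. Their sum was 119989 to 134010 CPM in controls and 96626 to 118646 CPM in treated animals. The fallen count was 1 without control 8A, 8D or 90C or treated 18D, 20B or 80B. It was 4 without treated 20D and 6 by DESeq2 or voom. Alb had a log2 change of -0.54 (edgeR, adjusted p = 0.0572). Its adjusted p was 0.00693 by DESeq2, 0.0427 by voom and 0.0177 without treated 20D.

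The response was compared between the frozen and the ethanol portions of the same livers. In an interaction test over 24 libraries 0 of 14583 genes were called by edgeR, with 170 at an unadjusted p under 0.05 (1.17%). That fit had no animal term, so its p-values do not allow for the pairing of portions by liver. With the animal as a block 0 were called and 808 had an unadjusted p under 0.05 (5.54%), with a lowest adjusted p of 0.106. DESeq2, also without an animal term, called 0 of 28322 genes, with 233 at an unadjusted p under 0.05 (0.823%). The log2 change of Cyp3a11 was 6.09 in ethanol portions, that of Ntrk2 -3.13 and that of Glul -0.23. These values share their animals with the frozen portions and are not independent of them.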

How the data were processed

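RNA from 12 frozen livers was sequenced. The authors deposited whole-number counts per Ensembl gene, not normalized; their table of log2 values was not used. Per the submitters' processing notes, CASAVA, STAR 2.5, edgeR and the builds GRCm38 and mm10 were used. No source used here names the counter, its annotation or how strand was treated, so overlapping, antisense and near-identical genes are uncertain. Symbols and 1-based positions came from GENCODE M21 (GRCm38), where 46954 of 47373 genes were found. The 92 spike-in lines held 0 counts.

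Groups came from sample titles. Tests used edgeR 4.0.16 in R 4.3.3 (quasi-likelihood, TMM scaling, default low-count filter, Benjamini-Hochberg adjustment at 0.05) with treatment as the sole term. A standard error is the absolute log2 change over the root of its F statistic. The tests were checked on simulated data. The interaction used 24 libraries, which the replicate numbers pair by animal: deviations of the 12 same-animal pairs correlated at 0.696 or more.

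Members and the 59 gene lists (1439 entries, 5 not analysed here) were chosen with earlier results of these data known. The rule for named genes took the 15 largest called rises and falls (mean level 5 CPM or more, groups not overlapping, no predicted names), the 10 largest shifts in CPM each way, the 5 largest long noncoding changes each way, the 5 genes most variable among treated animals, 11 fixed genes, and per list at most 4 called members and 2 others. Other named genes were chosen after their values were seen. Alternatives were DESeq2 1.42.0, voom with quality weights in limma 3.58.1, other scalings, no filter, thinned counts, a null fold change of 1.2 and leaving out each animal. Leaving out treated 20B and 80B together was chosen after seeing the data. Floors cover counting error only. A few members of the lists are not reported here by name.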

Additional observations from a re-analysis of the deposited data

Results flagged for a closer look

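In 13 of 274 groups of 6 animals, over 137 genes and measures, 1 animal stood apart, its gap to the next being most of the group's range (Dixon's test at the 95% level). Chance flags about 1 in 20 groups. Control 21C stood apart most often. It had the highest control level of Nr1i3 (112 CPM, others 38.9 to 51.3) and Cyp2e1 (5672 CPM, others 3765 to 4267). The same animal had the lowest control level of Saa1 (39.2 CPM, others 1602 to 5168), Ldha (558 CPM, others 737 to 785) and Srxn1 (23.9 CPM, others 29.4 to 31.6). Its summed acute phase level was 32532 CPM (others 64418 to 92307) and its summed ribosomal protein level 5769 CPM (others 6103 to 6231).

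Control 8C was lowest for Nebl (0.124 CPM, others 0.674 to 1.01) and highest in total counts (16456535, others 14527636 to 15214338). Control 8A was highest for Por (100 CPM, others 47 to 58.1). Control 8D was highest for Ccne2 (1.69 CPM, others 0.785 to 1.04). Control 82B was lowest for Ces3a (2115 CPM, others 2329 to 2462). Treated 20B was lowest for Fasn (740 CPM, others 1330 to 1862).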

How the results depend on the processing

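The number of genes called ranged from 872 (without treated 80B) to 1487 (without treated 75C) when each animal was left out, and the number called lower from 288 (without control 8A) to 506 (without treated 75C). Against a null fold change of 1.2, 295 genes were called, 259 higher and 36 lower. Without treated 20B and 80B together, 690 were called, 454 higher and 236 lower. With no low-count filter 317 genes were called lower. The cause of these differences was not tested. DESeq2 called 1707 genes, holding 98.6% of the 1313, and voom 1284, holding 86.1%. The difference in medians of the share held by the 10 most abundant genes was -2.04 percentage points (exact permutation, adjusted p = 0.0519). With the replicate block by animal, 0 genes were called in the interaction, as without it. No called gene named in the text changed direction under the alternatives run, but 5 uncalled ones did under some: Saa1 (0.26, lowest -2.29), Ces3a (-0.02, highest 0.15), Atf4 (-0.02, highest 0.08), Cps1 (-0.09, highest 0.04) and Cdkn1a (-0.04, highest 0.18), as log2 changes. Of 807 genes under 1 CPM, where counts are fewest, 20 were called higher and 8 lower; the part of depth in this was not tested.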
